A study of Mus musculus with 6 samples.

Results

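The mitotic kinesins are the motor proteins that build the spindle, move chromosomes on it and divide the cell at the end of mitosis. The genes described here were named by symbol in a list of 10, namely Kif11, Kif15, Kifc1, Kif22, Kif4, Kif2c, Kif18a, Kif18b, Kif20a and Kif23. They were selected on measured values, since the difference between these arrays was known when the list was drawn up, so their differences below are descriptions and carry no test. Of the 10 genes, 9 had a probe set (the group of probes that an array uses for a gene) under that symbol, and Kifc1 was not analysed here. All 9 passed the filter on dim probe sets, which asked for 5 or more on the log2 scale in at least 3 arrays, and they are 9 of the 18238 genes compared.

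RNA came from the whole kidney of BALB/c mice, all male and 10 to 12 weeks old, and each sample was hybridised to 1 Affymetrix Mouse Gene 1.0 ST array. In every mouse 1 kidney was made ischemic by a clamp for 26 min and then reperfused, and the opposite kidney was removed. After 24 h the mice received either 100 mg per kg body weight of m4PTB or its vehicle, 2-hydroxypropyl-β-cyclodextrin at 20% in water, and the kidney was taken 12 h later, at day 1.5. The compound m4PTB is methyl 4-(phenylthio)butanoate, an inhibitor of histone deacetylases. Both groups were therefore injured, had a single kidney and had been picked for a similar degree of injury by serum creatinine, blood urea nitrogen and Kim1 measured by qPCR. Each group held 3 samples. Their labels give replicate numbers without saying that each is a separate animal, so the spread between them may be partly technical, and their number limits the precision.

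Kinesins walk along microtubules or shorten them, using ATP. Most cells of the uninjured adult kidney are not dividing, whereas tubule cells that survive ischemia re-enter the cell cycle and replace lost neighbours. The mitotic kinesins are made in G2 and mitosis, largely under the MuvB complex and the factors B-Myb and FoxM1, and are held down outside the cycle by the DREAM complex, which contains MuvB and binds a promoter element called the cell cycle genes homology region (CHR).

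The starts of these genes are shown, without Kifc1, Kif2c and Kif20a. Most of the promoters carry letters of the CHR, which the choice of the genes did not use. The promoter of Kif18a, shown here, does not carry them, whereas those of Kifc1 and Kif2c, not shown, do. The stretches are the 80 bases before and the 30 bases after the annotated start, 5′ to 3′ on the strand of the gene, from RefSeq's mouse assembly GRCm38.p6. Capitals mark TTTGAA, the core of the CHR, and CCAAT, the letters bound by the factor NF-Y, both on either strand (TTCAAA and ATTGG when read on the other). They also mark TTGGCGC, a core of sites of E2F factors, which appears as GCGCCAA on the other strand.
Kif11, chr19:37376302-37376411, plus strand: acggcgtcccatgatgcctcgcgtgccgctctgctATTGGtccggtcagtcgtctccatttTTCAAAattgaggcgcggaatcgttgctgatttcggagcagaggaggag
Kif15, chr9:122951001-122951110, plus strand: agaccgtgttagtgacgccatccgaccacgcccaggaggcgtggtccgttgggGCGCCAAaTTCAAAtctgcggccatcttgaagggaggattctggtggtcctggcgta
Kif22, chr7:127042391-127042500, minus strand: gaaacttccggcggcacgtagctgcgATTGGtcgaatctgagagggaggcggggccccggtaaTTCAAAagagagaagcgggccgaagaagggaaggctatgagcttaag
Kif4, chrX:100625985-100626094, plus strand: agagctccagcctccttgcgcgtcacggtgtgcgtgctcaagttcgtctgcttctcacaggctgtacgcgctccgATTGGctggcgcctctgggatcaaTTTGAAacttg
Kif18a, chr2:109280658-109280767, plus strand: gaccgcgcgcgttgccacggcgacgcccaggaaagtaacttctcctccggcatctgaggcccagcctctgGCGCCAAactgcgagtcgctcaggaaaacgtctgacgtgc
Kif18b, chr11:102925095-102925204, minus strand: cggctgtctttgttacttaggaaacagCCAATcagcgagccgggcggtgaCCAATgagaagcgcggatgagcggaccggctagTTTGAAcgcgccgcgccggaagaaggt
Kif23, chr9:61946770-61946879, minus strand: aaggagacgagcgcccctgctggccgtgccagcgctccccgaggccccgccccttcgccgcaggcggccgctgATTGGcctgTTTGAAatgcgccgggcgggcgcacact

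A promoter of 300 bases, from 250 before to 50 after the start, was found for 9 of the 10 genes, Kifc1 included and Kif20a not. TTTGAA lay in 8 of these 9 promoters, all but that of Kif18a, against 17.89% of all 32851 promoters in the table. Of the promoters of other kinesin genes, 6 of 29 held it. A TTTGAA began within the 100 bases before the start in 3 of the 9 (Kif11, Kif15 and Kif22), against 5.95% of all promoters. In 7 of the 9 (Kif11, Kif15, Kifc1, Kif22, Kif4, Kif18b and Kif23) a TTTGAA lay wholly within 30 bases of the start, against 2.9% of all promoters, a window chosen after the positions were seen. Counted from the start, with negative numbers before it and base 1 the first of the gene, this copy began at base -19 in Kif11 and Kif15, at -17 in Kif22, and at 3, 4 and 20 in Kif23, Kif18b and Kif4. Kif2c held its only copy at base -103. The stretches of Kif2c and Kifc1 are not printed above, and that of Kif2c held no marked letters.

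CCAAT lay in 6 of the 9 promoters (Kif11, Kifc1, Kif22, Kif4, Kif18b and Kif23) against 37.41% of all promoters and 12 of 29 promoters of other kinesins. All 6 of these also held TTTGAA, and both together were in 6.95% of all promoters. The E2F core TTGGCGC lay in the promoters of Kif15 and Kif18a, 2 of 9, against 2.45% of all, and both of these lacked CCAAT. The other cores of E2F sites that were searched, TTCCCGC and TTCGCGC (4.6% and 1.59% of all promoters), and a variant of the CHR, TTCGAA (1.56%), lay in 0 of the 9. A match of this kind describes the letters in the window and does not show that a factor binds there.

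**Figure D1:**
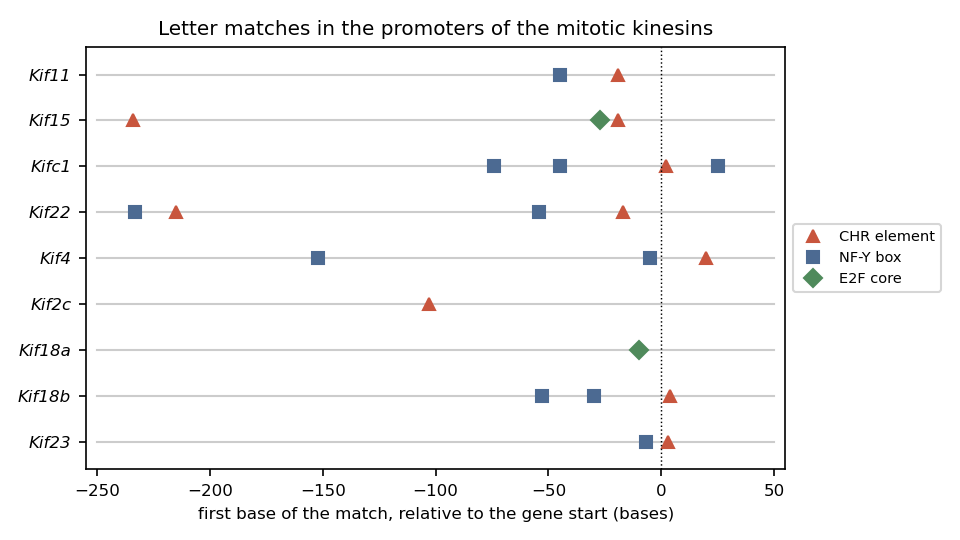
Positions of letter matches in the promoters of 9 mitotic kinesin genes, by the first base of each match relative to the annotated start on the strand of the gene (x axis, in bases); triangles stand for TTTGAA, squares for CCAAT and diamonds for TTGGCGC, each on either strand. Triangles of 7 genes lie close to the start, and Kif15 and Kif18a carry the 2 diamonds.

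Every measured mitotic kinesin had a higher signal after m4PTB than after vehicle on the probe set that stands for the gene, while a second, dimmer probe set of Kif18b did not. In 9 of 9 genes the lowest m4PTB array lay above the highest vehicle array, where 9.38% of all genes compared did the same and 5.21% lay wholly below. The differences ran from 0.48 to 0.97 on the log2 scale, 1.40-fold to 1.96-fold, with a median of 0.64 or 1.56-fold. The median over all genes was 0.01 and the 99th percentile 0.44, so each of the 9 lay beyond that percentile. Since the genes were chosen for this contrast, these counts describe them and support nothing further. By limma's test with Benjamini-Hochberg adjustment over all genes, 0 of 18238 genes passed an adjusted p of 0.05, 0% of those tested, with a smallest adjusted p of 0.495, so no kinesin was called. At an unadjusted p under 0.05, 4.67% of all genes were higher and 2.56% lower. The arrays read RNA of the whole kidney, so more cells of a type and more RNA per cell cannot be told apart.

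One array stood apart from the rest. Vehicle replicate 3 deviated from the 6-array median by a median of 0.136 over probe sets, against 0.043 to 0.059 for the other arrays, and its negative control probe sets had a median of 5.56, against 5.88 to 5.95. Over all genes compared it gave the lowest vehicle value in 42.6% and the highest in 39.4%. It gave the lowest vehicle value of all 9 kinesins. Without it their median difference was 0.54, with differences from 0.31 for Kif15 to 0.74 for Kif4. The 90th percentile of the negative controls, 7.73 to 7.86 per array, serves below as the level of background. Kif15, Kif22, Kif4 and Kif18a were above it on no array, and Kif11, Kif20a and Kif23 on at least 3.

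**Figure D2:**
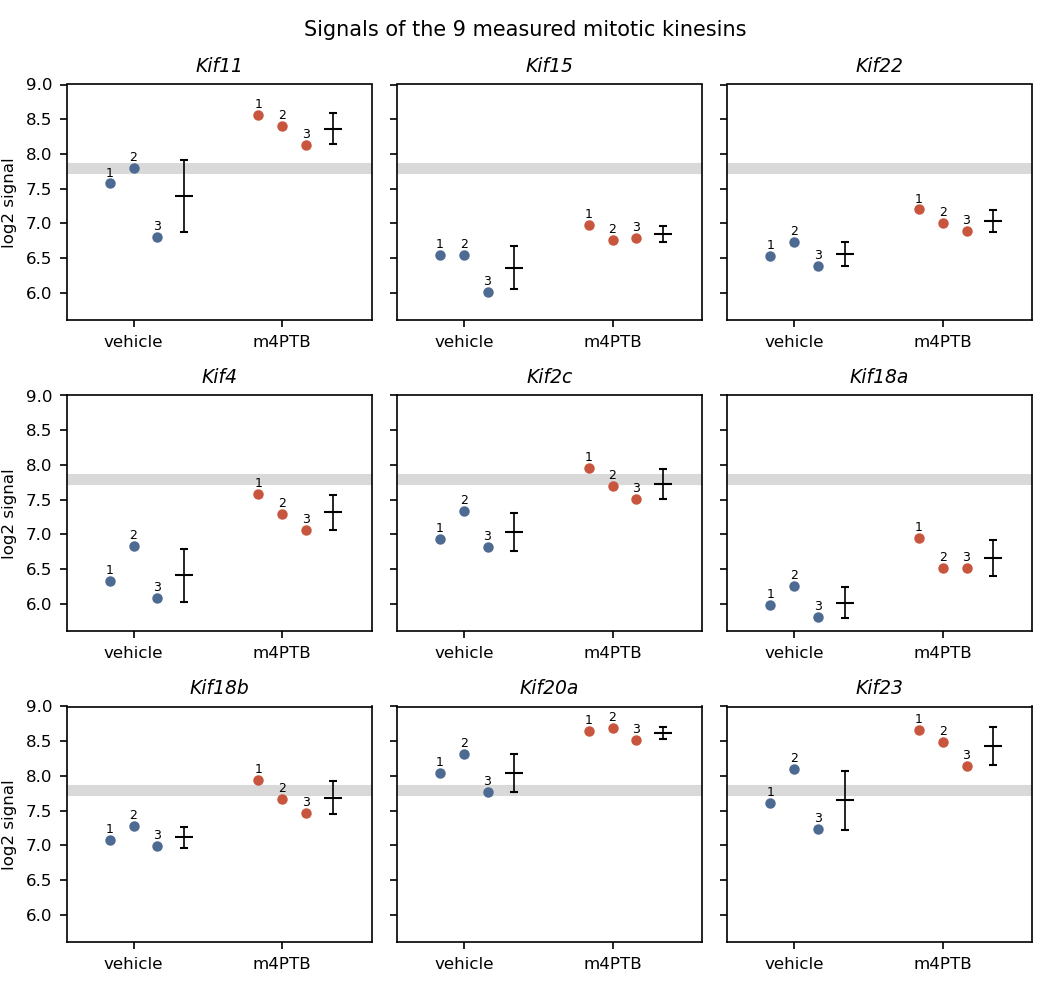
Deposited log2 signals (y axis) of 9 mitotic kinesins in 3 vehicle (blue) and 3 m4PTB (red) arrays, each point numbered by replicate, with the group mean ± SD in black and the 90th percentiles of the negative controls of the 6 arrays as a grey band. In each panel the 3 red points lie above the 3 blue points, and vehicle replicate 3 is the lowest point.

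The motors that hold the spindle bipolar included the largest difference of the family. Kif11 (Eg5, probe set 10462796) is a motor of 4 heavy chains that slides antiparallel microtubules apart and so separates the spindle poles. Its log2 signal was 7.57, 7.80 and 6.81 in vehicle replicates 1, 2 and 3, and 8.56, 8.40 and 8.13 in m4PTB replicates 1, 2 and 3. Vehicle replicate 3 was almost 1 log2 unit below vehicle replicate 2, while the m4PTB arrays lay close together, and 0.33 separated the groups. The means were 7.39 ± 0.52 (SD, n = 3) and 8.36 ± 0.22 (SD, n = 3), 0.97 apart with a standard error (SE) of 0.24, the fourth highest in the direction of m4PTB among all genes compared. It was 0.68 without vehicle replicate 3. All m4PTB arrays and none of the vehicle arrays were above background.

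Kif15 (Hklp2, probe set 10590494), a plus-end motor that in human cells helps Kif11 keep the poles apart, differed less. Vehicle replicates 1 to 3 read 6.54, 6.54 and 6.003, and m4PTB replicates 1 to 3 read 6.98, 6.76 and 6.79. Both groups were tight apart from vehicle replicate 3, and 0.22 separated them. The difference was 0.49 (SE 0.15), and 0.31 without vehicle replicate 3, which moved this gene by more than 1.5 times. All 6 values were below background.

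Of the motors on chromosome arms, Kif4 (probe set 10601011) had the larger difference. Kif4 is a chromokinesin that acts in chromosome condensation and, with Prc1, sets the length of the central spindle. It read 6.32, 6.83 and 6.08 in the vehicle arrays and 7.58, 7.29 and 7.07 in the m4PTB arrays, in order of replicate. The groups were separated by 0.24, with vehicle replicate 2 the nearest to the m4PTB arrays. The difference of 0.90 (SE 0.20), or 1.87-fold, was the eighth highest in the direction of m4PTB among all genes, and leaving out single arrays gave 0.74 to 1.11. The 2 probe sets of Kif4-ps, a pseudogene copy, differed by -0.03 and 0.09.

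Kif22 (Kid, probe set 10568150) binds DNA and pushes chromosome arms toward the spindle equator. Its vehicle values were 6.53, 6.73 and 6.39 and its m4PTB values 7.20, 7.01 and 6.89. The spread was small and alike in both groups, with SDs of 0.17 and 0.16, and a gap of 0.16 between them. The difference was 0.48 (SE 0.11), the smallest of the 9 genes, and 149 of all genes compared, 0.817%, were higher by at least as much.

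The 3 motors that act on microtubule ends had differences close to each other, from 0.57 to 0.69. Kif2c (MCAK, probe set 10515431) does not walk but removes tubulin from microtubule ends and frees wrongly attached chromosomes. It was at 6.93, 7.34 and 6.82 in the vehicle arrays and at 7.95, 7.70 and 7.51 in the m4PTB arrays. Vehicle replicate 2 was the highest of its group and lay 0.18 below the lowest m4PTB array. The means of 7.03 ± 0.27 (SD, n = 3) and 7.72 ± 0.22 (SD, n = 3) differed by 0.69, (SE 0.16).

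Kif18a (probe set 10474381) gathers at the plus ends of kinetochore microtubules and damps the swings of chromosomes at the metaphase plate. Its signals were 5.98, 6.25 and 5.81 in the vehicle arrays against 6.95, 6.51 and 6.51 in the m4PTB arrays. The array of m4PTB replicate 1 stood above the others of its group, and the gap between groups was 0.26. The difference was 0.64 (SE 0.15), which is the median of the 9 genes.

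Kif18b shortens astral microtubules, in human cells together with Kif2c, and 2 probe sets carried its symbol. The brighter one (10391811), used here by the rule of the highest mean, read 7.07, 7.28 and 6.99 in the vehicle arrays and 7.94, 7.67 and 7.46 in the m4PTB arrays, a difference of 0.57 (SE 0.13). The dimmer one (10381664) read 6.15, 5.92 and 6.31 against 6.11, 5.83 and 5.86. Its groups overlapped and it differed by -0.20, in the opposite direction. The mean of both probe sets differed by 0.19, so the value for Kif18b rests on which probe set stands for the gene.

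Both motors of the central spindle were above background on at least 4 arrays. Kif20a (Mklp2, probe set 10454709) carries the chromosomal passenger complex, with Aurora B, to the central spindle in anaphase. It read 8.04, 8.31 and 7.77 in the vehicle arrays and 8.65, 8.69 and 8.52 in the m4PTB arrays, each above the negative controls' percentile of its own array. The m4PTB arrays lay within 0.16 of each other, the tightest group of any of the 9 genes, with an SD of 0.09. The difference was 0.58 (SE 0.13), and 0.44 without vehicle replicate 3.

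Kif23 (Mklp1, probe set 10594251) forms centralspindlin with Racgap1, the complex that bundles central microtubules and marks the site of the cleavage furrow. Its vehicle values were 7.61, 8.09 and 7.24, and its m4PTB values 8.66, 8.49 and 8.14. Vehicle replicate 2 came within 0.04 of m4PTB replicate 3, the narrowest gap of the 9 genes. The means of 7.65 ± 0.43 (SD, n = 3) and 8.43 ± 0.27 (SD, n = 3) differed by 0.78, (SE 0.22).

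The kinesins kept nearly the same order of arrays within each group. In 8 of 9 genes vehicle replicate 2 was the highest and vehicle replicate 3 the lowest of its group, an order found in 21.28% of all genes, and Kif15 differed only in that replicate 1 was marginally above replicate 2. Among the m4PTB arrays, replicate 1 was the highest in 8 of 9 genes, Kif20a being the exception, and in 37.6% of all genes. The order from replicate 1 down to replicate 3 held in 6 of 9 genes and in 22.08% of all genes. Averaged over the 9 genes, the signal relative to the vehicle mean was 0.00, 0.29 and -0.29 in the vehicle arrays and 0.88, 0.66 and 0.50 in the m4PTB arrays. The span of 0.59 within the vehicle group was thus close to the median difference between groups. The vehicle SD was the larger in 7 of 9 genes and in 65.8% of all genes.

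**Figure D3:**
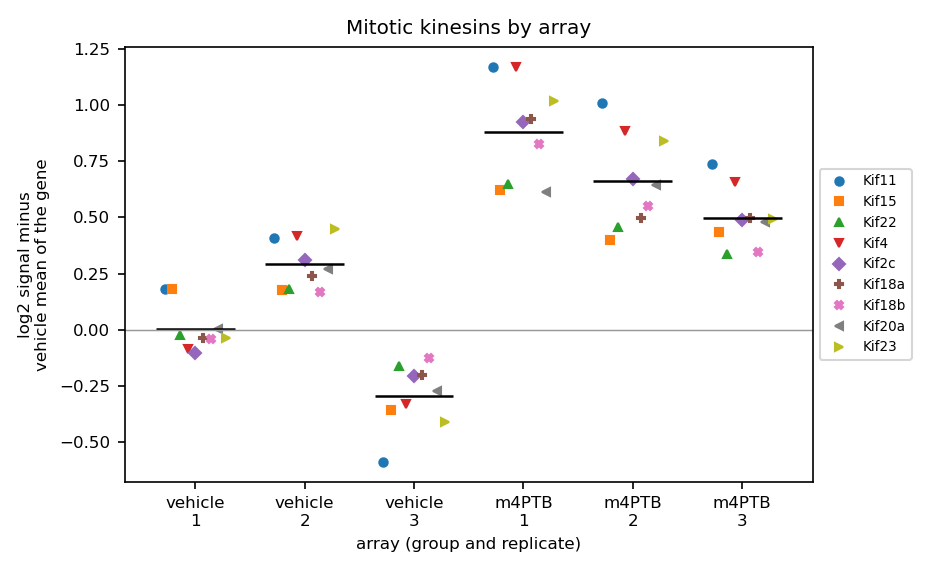
Log2 signal of each of 9 mitotic kinesins minus that gene's mean over the vehicle arrays (y axis), by array (x axis), with 1 marker per gene and a black line at the mean over the genes. The means run from -0.29 in vehicle replicate 3 to 0.29 in vehicle replicate 2 and from 0.50 to 0.88 in the m4PTB arrays.

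The genes most like the kinesins were sought by the root mean square difference, over the 6 arrays, between a gene's centred log2 values and the mean of the kinesins' centred values. The nearest of 18229 other genes were Pbk, a mitotic kinase, at 0.0496, Pola1, the catalytic subunit of DNA polymerase alpha, at 0.0510, and Dlgap5 (Hurp), a microtubule-bundling protein of the spindle, at 0.0520. Fbxo48, Cdkn3, Rrm1, Ncaph, Oip5, Cenpf and Aurkb followed, at 0.0532 to 0.0643. The median over all genes was 0.3999, and the kinesins themselves lay at 0.0593 for Kif2c to 0.210 for Kif11. The likeness covers 6 arrays of 2 groups, and a gene that differs between groups by a similar amount scores as near.

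**Figure D4:**
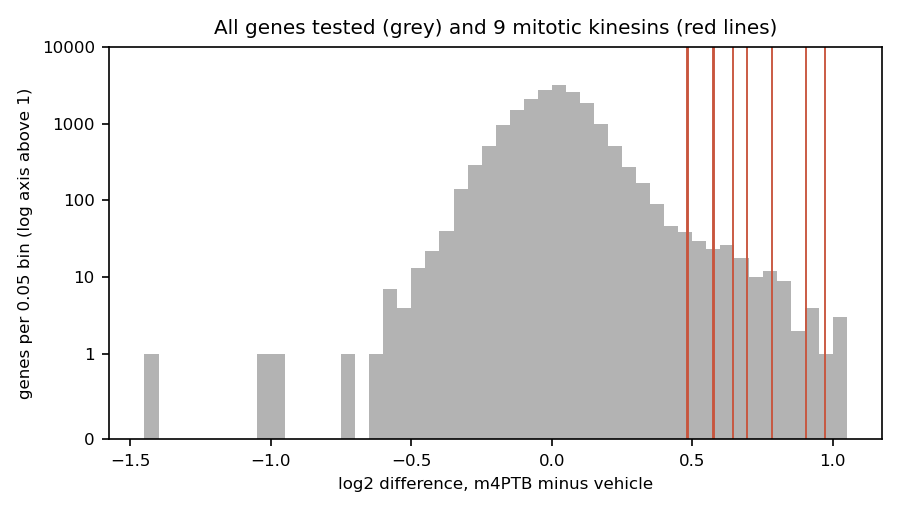
Number of genes (y axis, log scale above 1) per bin of 0.05 in the log2 difference of m4PTB minus vehicle (x axis) for 18238 genes in grey, with red lines at the differences of the 9 mitotic kinesins. The red lines lie from 0.48 to 0.97, in the upper tail of the grey distribution, whose 99th percentile is 0.44.

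The rest of the kinesin superfamily, mostly motors of vesicle and organelle transport and of cilia, had a median near that of all genes. Of 33 other kinesin genes, 32 were compared, of which 19 were higher and 13 lower, with a median of 0.05 against 0.01 for all genes. By limma 0 passed the adjusted threshold. At an unadjusted p under 0.05 there were 4 higher and 0 lower, against 4.67% and 2.56% of all genes. The groups did not overlap, with m4PTB higher, in 5, against 9.38% of all genes. Of the 32 genes, 21 were above background on no array.

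Cenpe, Kif20b and Kif14 gave the largest differences among the other kinesins, and all 3 act in mitosis. Cenpe, the kinetochore motor that carries chromosomes to the metaphase plate, read 6.61, 6.88 and 5.91 in the vehicle arrays and 7.50, 7.28 and 7.05 in the m4PTB arrays. Its difference of 0.81 (SE 0.23) did not pass limma's threshold (adjusted p = 0.626). Kif20b, a plus-end motor of late mitosis and abscission, differed by 0.75 (adjusted p = 0.626), and Kif14, which acts with Prc1 and citron kinase in cytokinesis, by 0.48 (adjusted p = 0.595). In these 3 genes the groups did not overlap and vehicle replicate 3 was the lowest array, as in the 9 listed kinesins.

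The remaining 29 had a median of 0.02 and ran from -0.27 for Kif5a, a neuronal transport motor, to 0.24 for Kif2a, a relative of Kif2c that also shortens microtubules at spindle poles. The smallest adjusted p among them was 0.679. Kif5b, the widely expressed motor of conventional kinesin, read 10.74, 10.70 and 10.54 in the vehicle arrays and 10.75, 10.75 and 10.76 in the m4PTB arrays. Its difference was 0.09 (SE 0.08) (adjusted p = 0.739), and without overlap between groups. Kif3a, a subunit of the kinesin that builds cilia, differed by 0.19 with overlapping groups (adjusted p = 0.695). Kif9, Kif13b and Kifc5b differed by 0.11 to 0.12, and Kif7, Kif5c and Kif1a by -0.13, -0.14 and -0.20, with overlap in each.

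Kifc5b and Kifc5c-ps are copies closely related to Kifc1, the minus-end motor that focuses spindle poles. Kifc5b read 7.33, 7.47 and 7.52 in the vehicle arrays and 7.59, 7.60 and 7.45 in the m4PTB arrays. The groups overlapped, and neither copy was above background on any array. Nothing about Kifc1 itself can be read from these copies.

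**Figure D5:**
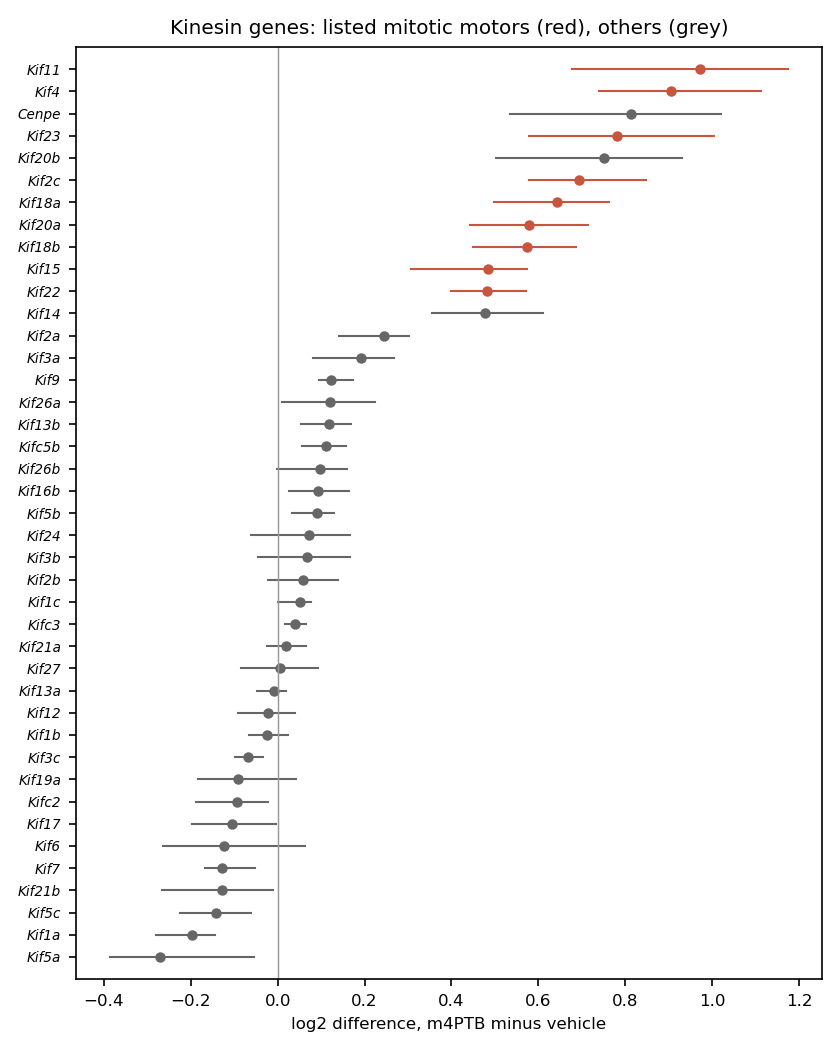
Log2 difference of m4PTB minus vehicle (x axis) for 41 kinesin genes (y axis), with the 9 listed mitotic kinesins in red and 32 other kinesin genes in grey; lines span the values obtained when each of the 6 arrays was left out in turn. The red points lie from 0.48 to 0.97, and 3 grey points, Cenpe, Kif20b and Kif14, lie among or next to them, with all others at or below 0.24.

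Genes of proteins that work with these motors on the spindle ran from -0.01 to 0.86. Of 24 spindle partners, all compared, 23 were higher and 1 was lower, with a median of 0.60 against 0.01 for all genes. By limma 0 passed the adjusted threshold. At an unadjusted p under 0.05, 21 were higher, against 4.67% of all genes, and 15 had no overlap, against 9.38%. The list was chosen with earlier results of these data known, so these counts describe it only. Without vehicle replicate 3 the median was 0.40. Racgap1, the partner of Kif23, read 7.74, 8.07 and 7.20 in the vehicle arrays and 8.49, 8.34 and 8.08 in the m4PTB arrays, a difference of 0.64 (limma adjusted p = 0.659). Its groups were nearly in contact, as those of Kif23 were. Prc1, the microtubule bundler that recruits Kif4, differed by 0.78 with overlapping groups (adjusted p = 0.660), and Tpx2, which binds Kif11 and Kif15 on the spindle, by 0.78 without overlap (adjusted p = 0.626). Cdk1, the kinase that starts mitosis, differed by 0.86 (adjusted p = 0.556), and Aurka, the spindle pole kinase, by 0.56 (adjusted p = 0.587). Aurkb, part of the cargo of Kif20a and a kinase that regulates Kif2c, differed by 0.68 (adjusted p = 0.587). Incenp, Birc5 and Cdca8, of the same passenger complex, differed by 0.40, 0.41 and 0.51, with overlapping groups. Hmmr, Kntc1 and Stmn1 differed by 0.66, 0.62 and 0.45. Numa1, a spindle pole protein that is also made between divisions, was the lower one, at -0.01. The microtubule end-binding genes Mapre1 and Mapre3 differed by 0.05 and 0.04, and Ckap5 and Spag5 by 0.30 and 0.31, below each of the 9 kinesins.

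The regulators of these promoters were measured too. The 18 genes were MuvB, its partners, NF-Y and the upstream regulators Trp53 (p53) and Cdkn1a (p21). Of these, 14 were higher and 4 lower, with a median of 0.05. By limma 0 passed the adjusted threshold, and 3 were higher at an unadjusted p under 0.05, against 4.67% of all genes. In 4 of the 18 the groups did not overlap, with m4PTB higher, against 9.38% of all genes. Foxm1, the factor that acts on G2 and M genes, read 7.20, 7.65 and 6.88 in the vehicle arrays and 7.96, 7.85 and 7.71 in the m4PTB arrays. The groups did not overlap, and the difference of 0.60 did not pass the test (adjusted p = 0.638). Mybl2, which encodes B-Myb, differed by 0.02 (SE 0.10) (adjusted p = 0.961). Rbl1 (p107) and Lin54, the MuvB subunit that contacts the CHR, differed by 0.36 and 0.29, and Tfdp1 by 0.13, also without overlap. Lin9 and Nfya differed by 0.21 and 0.17 with overlapping groups.

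Tubulins are the subunits of the track on which kinesins act. Of 18 compared of 19 listed, 11 were higher and 7 lower, with a median of 0.03. By limma 0 passed the adjusted threshold. At an unadjusted p under 0.05, 3 were higher and 1 lower, against 4.67% and 2.56% of all genes. Tubb5, a beta tubulin abundant in dividing cells, differed by 0.37 with overlapping groups (adjusted p = 0.685). The groups did not overlap in 2 higher and 2 lower tubulins, against 9.38% and 5.21% of all genes. The higher ones were Tube1 and Tubd1, the epsilon and delta tubulins of centrioles, which differed by 0.38 and 0.18. The lower ones were Tuba8 and Tuba4a, at -0.30 and -0.10. Tubb2b and Tubb4b differed by -0.18 and 0.15 with overlapping groups.

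Markers of the cells that a kidney can hold were read beside these values. All 8 proximal tubule markers were above background on at least 3 arrays, as were 7 of 8 markers of other nephron parts. Their medians were -0.08 and -0.09. Of the proximal tubule markers 3 were higher and 5 lower, and 3 were lower at limma's unadjusted p under 0.05, against 2.56% of all genes. The m4PTB arrays lay wholly below in 3 of the 8, against 5.21% of all genes. Of the other nephron markers 1 was higher and 7 were lower, 1 of them without overlap. The podocyte marker Nphs1 was above background on no array. Macrophage and monocyte markers were higher in 9 of 10 genes, with a median of 0.17, or 0.09 without vehicle replicate 3. Their mean log2 signal was 7.01 to 7.36 in the vehicle arrays and 7.21 to 7.49 in the m4PTB arrays, and 6 of the 10 were above background on no array. Tubular injury markers had a median of 0.24, fibroblast markers 0.16 and endothelial markers 0.05. Without vehicle replicate 3 the medians of the injury, fibroblast and endothelial markers were 0.11, 0.03 and -0.01. Without m4PTB replicate 1 the median of the other nephron markers was -0.0079. Of 7 neutrophil markers, S100a8, Ly6g, Retnlg and Cxcr2 were below the filter, as were Cd3d, Ms4a1, Cd79a and Ncr1 of 8 lymphocyte markers, and the other 3 and 4 were above background on no array, with medians of -0.01 and -0.06, or 0.05 and 0.08 without vehicle replicate 3. The 3 erythroid markers compared, of 6 listed, had a median of -0.12, or -0.02 without vehicle replicate 2 and -0.05 without vehicle replicate 3. The part of macrophage, injury or fibroblast cells in the kinesins' difference was not tested.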

How the data were processed

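Values were log2 signals per probe set as deposited by the authors, and per the submitters' processing notes RMA and Affymetrix Expression Console 1.1 were used. This method subtracts background, quantile-normalizes the arrays and summarises probes, so a shift of most genes would not be seen. The 6 signal columns of the annotated table match no sample's labels and were not used. Gene names came from that table, with 2268 symbols updated by accession through RefSeq's table for GRCm38.p6. Of 35556 probe sets, 25004 had 1 symbol, 2 had several, and 6546 controls were left out. Each gene took its probe set of highest mean among those that reached 5 on the log2 scale in at least 3 arrays.

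Groups were compared in R 4.3.3 with limma 3.58.1 and no covariate, with Benjamini-Hochberg adjustment over 18238 genes. In data simulated for this comparison over 18238 genes, 70.5% of genes planted at a log2 change of 0.5 and 99% of those at 1 were recovered. The simulated noise was independent between genes with no array standing apart, so these shares may be higher than those reached here. The planted genes were drawn at random from all genes, so the shares are not those of genes with the kinesins' SEs, 0.11 to 0.24. The kinesins, the other lists and the motifs were chosen with earlier results of these data known. Other kinesins were named by a fixed list of 5 plus up to 8 of smallest unadjusted p. Context genes were named by up to 6 of smallest unadjusted p per list plus fixed names. Numa1, Mapre1, Mapre3, Ckap5, Spag5, Incenp, Birc5, Cdca8, Tuba4a, Trp53, Cdkn1a, Kif4-ps and Kifc5c-ps were named after their values were seen. The protein features in the plan were not computed, for want of a protein table. Same-numbered samples did not deviate together (correlations of -0.13, -0.05 and -0.08 across genes), so the replicate number was no block.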

Additional observations from a re-analysis of the deposited data

How the results depend on the processing

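Under 14 alternatives the differences of the 9 kinesins were positive in 120 of 120 values, from 0.19 to 1.18. That count shows little, because many of the values could not have come out otherwise. Another variance model, the replicate block and no filter on dim probe sets gave the main differences again, and averaging probe sets changed only Kif18b. Where groups did not overlap, leaving out 1 array could not reverse a difference. The median of the kinesins was 0.51 with array weights to 0.78 above background. Leaving out 1 array gave medians of 0.54 to 0.76 and 0 called genes each time. Restricting to genes brighter than the negative controls' 90th percentile left 8083 genes and 3 kinesins (Kif11, Kif20a and Kif23), so 3 were without overlap. With the replicate block the median was 0.64 and 0 genes were called. The small medians of other lists depended on scaling. That of the other kinesins, 0.05, was -0.0117 with array medians subtracted and 0.0062 with cyclic loess, and ran from 0.020 to 0.0445 over 1 array left out, whereas subtraction moved the median of all genes to -0.05. The tubulin median was 0.0125 to 0.099 over 1 array left out, and the erythroid marker median, -0.12 over 3 genes, was 0.0109 above background and -0.023 and -0.046 without vehicle replicate 2 or 3. The median of MuvB and its regulators, 0.05, was 0.035 to 0.114 over 1 array left out and -0.0043 with array medians subtracted. Genes at limma's unadjusted p under 0.05 numbered 1318 in the main fit. There were 843 without m4PTB replicate 1, 861 without m4PTB replicate 2 and 772 above background, where fewer genes were tested. The number was larger without vehicle replicate 1 or 2, at 1623 and 1807, and with array weights, at 1743. Apart from the fewer genes above background, the cause of these changes was not tested. Most kinesins lie near background on these arrays, which limits what their size can show.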
